A study of Sus scrofa with 5 samples.

Results

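The comparison was between porcine embryonic stem cells (pESCs) at passage 25 and at passage 7, in bulk RNA-seq libraries that give 1 expression profile for a whole culture. The libraries were taken by their column names, PAP25 against PA_4P7, with IVFP25 as another passage 25 culture, so 3 of the 5 samples of the series were used. FPKM values, fragments scaled by exon length and by sequencing depth, were summed per gene symbol. Of 29886 genes, the 12291 with at least 1 FPKM in at least 1 of the 3 libraries were compared. The study derived pESCs from parthenogenetic blastocysts, induced them to form blastoids and profiled day 6 blastoids by scRNA-seq, which was not used here.

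The 3 libraries shared species, medium and cell type. All were pig pESCs grown in 4FIXY, a medium with activin A, IGF1, IL-6, soluble IL-6 receptor α, the WNT inhibitors XAV939 and IWR1 and the ROCK inhibitor Y-27632, on mitomycin C-treated mouse embryonic fibroblasts as feeders. No group carried a gene deletion or another treatment. The labels name the samples pESC-1, pESC-2 and pESC-3 and give each as a cell line of its own. They give no passage, and no column name contains a sample number, so the passage is known only from P7 and P25 in the column names. PA is the paper's abbreviation of parthenogenetic and IVF that of in vitro fertilization. What the 4 in PA_4P7 stands for is not stated. With 1 library a side, passage, cell line, embryo source and library preparation cannot be told apart, no spread between replicates exists, and all values are descriptions of these libraries with no test.

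Pluripotent stem cells divide without limit in culture while they keep the ability to form all germ layers. A culture kept for many passages can accumulate genetic and epigenetic changes, and cells that start to differentiate can appear among the undifferentiated ones. In the embryo, activin and NODAL, WNT and BMP signals turn epiblast cells towards the primitive streak, from which mesoderm and definitive endoderm arise, while the hypoblast forms as a separate extra-embryonic lineage. LEFTY proteins are secreted inhibitors of NODAL that NODAL signalling itself switches on.

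All 6 markers of pluripotent cells were above 1 FPKM in each library, with a sum of 1456 FPKM in PAP25, 1666 in PA_4P7 and 1842 in IVFP25. Of 7 fibroblast or feeder markers, 2 reached 1 FPKM in each library, their sum was 5.85 to 7.05 FPKM, and POSTN was listed at 0 in all 3. The feeders were mouse cells and the values are of pig genes, so these markers do not measure feeder content. The median difference over the genes compared was -0.017 between PAP25 and PA_4P7, and -0.040 between IVFP25 and PA_4P7, on the log2(FPKM + 1) scale that is used for every difference here. Sequencing depth is not given, so no counting error can be put on any value, and a low FPKM is less certain than a high one.

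A gene was called different where 2 libraries were at least 1 apart on this scale, which is 2-fold after 1 FPKM is added to both. PAP25 was higher than PA_4P7 in 290 genes (2.36%) and lower in 124 (1.01%). Comparison with IVFP25 split them. In 38 genes (0.309%) both P25 libraries were higher than PA_4P7, and in 43 (0.350%) both were lower. PAP25 stood apart from both other libraries, which were less than 2-fold apart, in 169 genes that were higher (1.37%) and 39 that were lower (0.317%). The rest were 119 genes in which IVFP25 was less than 2-fold from both, and 6 in which IVFP25 differed from PA_4P7 in the opposite direction. IVFP25 stood apart in the same way in 48 genes that were higher (0.391%) and 33 that were lower (0.268%).

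The 81 genes shared by both P25 libraries were as many as the 81 in which IVFP25 stood apart. IVFP25 and PA_4P7 differed in 267 genes (2.17%), PAP25 and PA_4P7 in 414, and PAP25 and IVFP25, which carry the same passage number, in 443 (3.60%). PA_4P7 stood apart, with both P25 libraries less than 2-fold from each other, in 70 of the 81 shared genes, against 208 genes with PAP25 apart. Both comparisons with PA_4P7 use the same library, so a gene that is unusual in PA_4P7 alone also falls into the classes shared by both P25 libraries, and the classes do not separate it from an effect of passage.

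**Figure D1:**
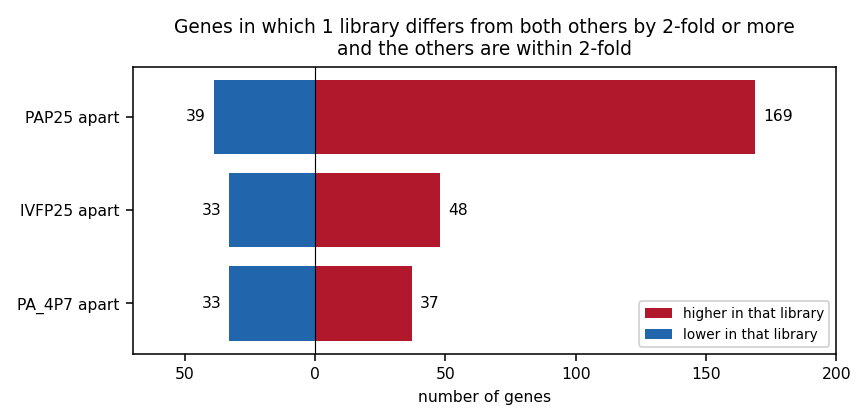
Number of genes (x axis) in which PAP25, IVFP25 or PA_4P7 differed by at least 1 on the log2(FPKM + 1) scale from both other libraries while those were less than 1 apart, with genes higher in that library to the right and lower to the left. PAP25 has the longest bar, with 169 genes higher and 39 lower, and PA_4P7 has 37 higher and 33 lower.

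**Figure D2:**
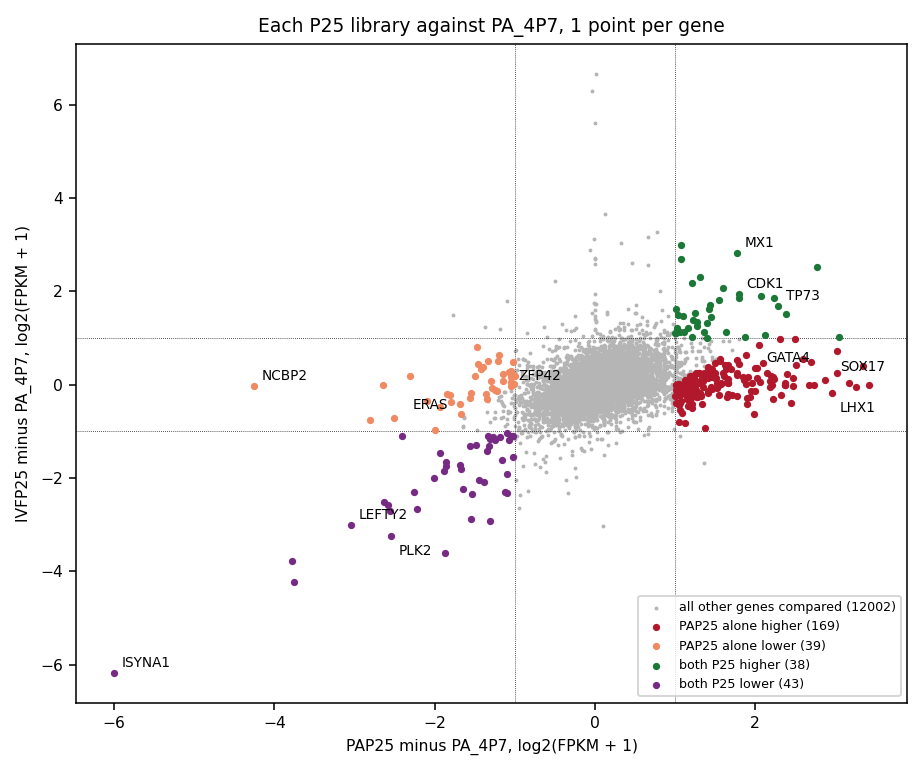
Difference of PAP25 from PA_4P7 (x axis) and of IVFP25 from PA_4P7 (y axis) on the log2(FPKM + 1) scale, 1 point for each of 12291 genes, with dotted lines at a difference of 1 in either direction. Genes of PAP25 alone lie along the horizontal axis, 169 to the right and 39 to the left, and ISYNA1 lies at the far lower left at -6.00 and -6.17.

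The promoter of DKK1, a secreted WNT antagonist and 1 of the WNT genes higher in PAP25 alone, is shown because it holds the TCF/LEF motif whose share is given for each class further on. It is the 300 bases from 250 before to 50 after the annotated start, 5′ to 3′ on the minus strand, at chr14:97490069-97490368 of Sscrofa11.1 (susScr11), and capitals mark the TCF/LEF motif CTTTGA and the TATA box TATAAA, on either strand.
DKK1: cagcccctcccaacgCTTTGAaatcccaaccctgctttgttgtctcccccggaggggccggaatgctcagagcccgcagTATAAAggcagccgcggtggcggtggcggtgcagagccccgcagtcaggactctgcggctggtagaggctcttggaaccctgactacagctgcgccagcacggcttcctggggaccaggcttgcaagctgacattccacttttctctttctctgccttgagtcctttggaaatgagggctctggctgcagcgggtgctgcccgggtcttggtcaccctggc
The TCF/LEF motif lies 235 and the TATA box 171 bases before the annotated start. From this start the bases read atg, and the listed transcript has 801 bases. The annotated start may therefore be that of the coding sequence, so the stretch can hold untranslated and coding bases. The distances are then not from the start of transcription. A match of letters is not evidence that a factor binds there.

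Both P25 libraries were lower than PA_4P7 for LEFTY2, the NODAL inhibitor, and for its annotated neighbour. LEFTY2 was at 7.01 FPKM in PAP25, 64.8 in PA_4P7 and 7.16 in IVFP25, so the level in PA_4P7 was 9.25 times that in PAP25. LOC100524517, annotated as a left-right determination factor 29.8 kb away on the same strand, was at 0.942 FPKM in PAP25, 25.1 in PA_4P7 and 0.391 in IVFP25. Both P25 libraries were low for both genes, and PA_4P7 alone was high. The genes resemble each other: 817 of the 1071 words of 31 bases in the LEFTY2 transcript (76.3%) also occur in that of LOC100524517, so reads can be shared between them and the pair is best read together. LEFTY2 lies at chr10:13849052-13853438 and LOC100524517 at chr10:13815157-13819249.

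LEFTY2 was the 1 gene of the NODAL and activin list that was lower in PAP25. Of 18 genes on this list, 17 were compared, and 3 were higher in PAP25 than in PA_4P7, against 2.36% higher and 1.01% lower over all genes. The median difference was 0.06. NODAL, the ligand, was at 0.395 FPKM in PAP25, 1.19 in PA_4P7 and 0.345 in IVFP25, which is below the threshold of a difference at these low levels. TDGF1, its co-receptor, was at 15.2, 19.7 and 12.9 FPKM in the same order, and FOXH1, which acts with the SMADs in the nucleus, at 21.2, 33.7 and 47.3. CER1, a secreted inhibitor of NODAL, BMP and WNT, differed from PA_4P7 in opposite directions, at 14.2 FPKM in PAP25, 4.85 in PA_4P7 and 0.830 in IVFP25.

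ISYNA1, the enzyme that makes inositol phosphate from glucose 6-phosphate, had the largest difference from PA_4P7 in the 4 classes shared by both P25 libraries or of PAP25 alone. It was at 0.748 FPKM in PAP25, 111 in PA_4P7 and 0.558 in IVFP25. Nearly all of the PA_4P7 level came from 1 transcript, at 107 FPKM there, 0 in PAP25 and 0.221 in IVFP25. The annotation lists the gene, at chr2:59363672-59367003 on the plus strand, as a lncRNA, so the transcripts behind this symbol are not given as protein-coding.

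PLK2, a polo-like kinase, was at 0.708 FPKM in PAP25, 8.90 in PA_4P7 and 0.0503 in IVFP25. DDR2, a collagen receptor, was at 0.159, 5.81 and 0.0384 FPKM in the same order, and GFRA2, a receptor of the GDNF family ligands that is annotated at 2 places, at 4.95, 20.6 and 5.41. In all 3 genes only PA_4P7 was high. CYP2D25, a vitamin D 25-hydroxylase of the pig and a member of a family of similar genes, was listed at 0 in PAP25, at 5.19 FPKM in PA_4P7 and at 0.0813 in IVFP25. ODF4, a sperm tail protein gene, was at 0.0474, 2.36 and 0.0175 FPKM, DNAJB13 at 0.414, 4.12 and 0.619, and TDRD10, a tudor domain gene, at 1.42, 10.6 and 1.37. Chosen after their values were seen, ZAR1, a maternal-effect gene, was at 2.36, 11.8 and 3.66 FPKM, and HERC5, an ISG15 ligase, at 33.7, 95.6 and 38.4.

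Among the 38 genes higher in both P25 libraries, CDK1, the kinase that drives entry into mitosis, had the largest shared difference of the named genes. It was at 73.0 FPKM in PAP25, 20.2 in PA_4P7 and 80.4 in IVFP25, or 3.61 times as high in PAP25 as in PA_4P7. Its transcripts differed in opposite directions, and their sum was still lowest in PA_4P7. One was at 71.9, 6.68 and 79.3 FPKM in PAP25, PA_4P7 and IVFP25, and the other at 1.15, 13.6 and 1.17, so that PA_4P7 alone had most of its level on the second transcript. The 30 genes of the S and G2M phases had a median difference of -0.05, with CDK1 as the 1 gene that was higher in PAP25 and TYMS, the thymidylate synthase, as the 1 that was lower. Over all genes 2.36% were higher and 1.01% lower, so these counts are near the overall shares for a list of this size.

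TP73, a transcription factor gene and one of the maternally expressed imprinted genes on the list used, was at 11.2 FPKM in PAP25, 1.49 in PA_4P7 and 7.05 in IVFP25. DIRAS3, a paternally expressed imprinted gene of the RAS family, was at 1.57, 0.0397 and 4.12 FPKM. TAC3, which encodes neurokinin B, was at 46.1, 14.6 and 64.3 FPKM. In these 3 genes both P25 libraries were above PA_4P7, and TAC3 and DIRAS3 were highest in IVFP25.

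MX1, an interferon-induced antiviral GTPase, was at 3.19 FPKM in PAP25, 0.219 in PA_4P7 and 7.61 in IVFP25, while TRIM25, another interferon-stimulated gene, went the other way at 0.542, 3.80 and 0.0235. The interferon-stimulated list as a whole had 14 of 27 genes compared, of which these were the 2 called, and a median difference of -0.02. Over all genes, 0.309% were higher and 0.350% lower in both P25 libraries. ID3, a direct BMP target, was at 142, 37.8 and 77.9 FPKM. It was the 1 gene of the BMP list that both P25 libraries shared. Its smaller difference from PA_4P7 was 1.02, and it was below the threshold when each library was scaled to an equal sum. Others in this class were CAVIN3, a caveolar protein gene, at 3.28, 0.458 and 4.12 FPKM, ERAP1, which trims peptides for MHC class I, at 2.04, 0.118 and 2.64, LRRN2 at 4.44, 0.0397 and 1.96, FAM151B at 5.75, 1.50 and 6.61, and SPRED3, an inhibitor of RAS signalling, at 5.98, 1.55 and 5.96. SPRED3 was carried by a different transcript in each library.

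**Figure D3:**
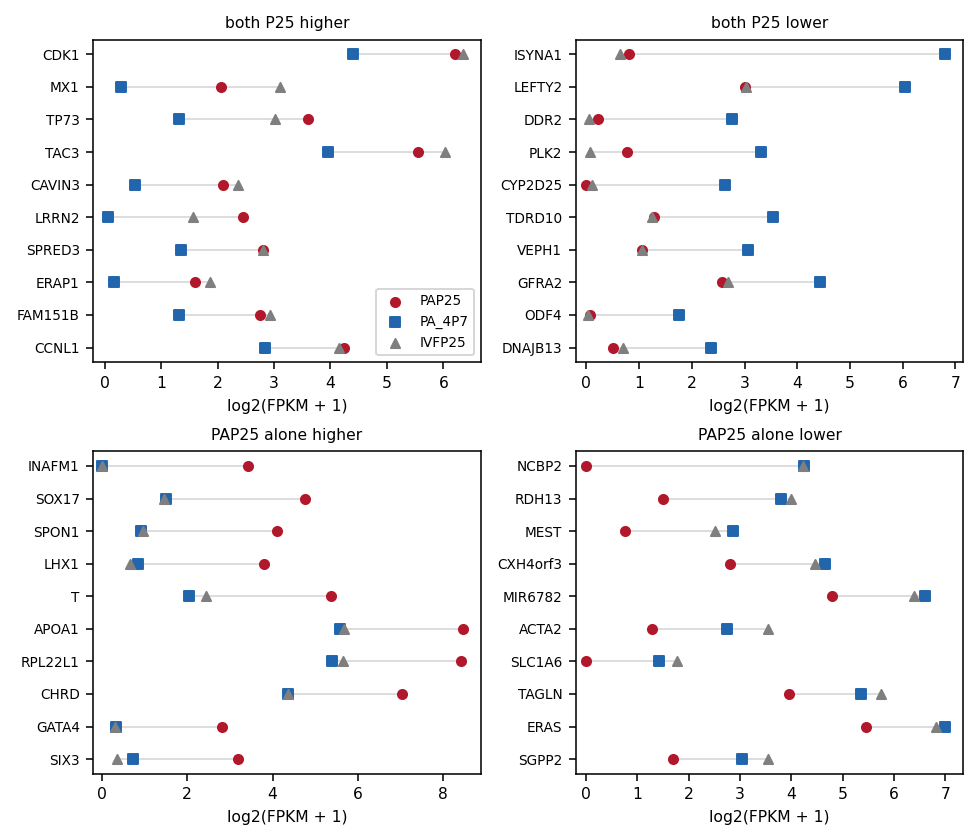
Level of the 10 named genes of each class on the log2(FPKM + 1) scale (x axis), with a circle for PAP25, a square for PA_4P7 and a triangle for IVFP25. In the upper panels the square stands away from both other marks, and in the lower panels the circle does, as the classes require. MX1 (3.19, 0.219 and 7.61 FPKM) shows the distance that can remain between the P25 libraries within a shared class.

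The 169 genes higher in PAP25 alone included regulators of endoderm, primitive streak and mesoderm. The floor of 1 FPKM changed none of the calls but set which genes were compared: 83 of the 169 genes reached it in PAP25 alone and so entered the comparison only through the library in which they were high, and over all genes compared this held for 389 in PAP25, 151 in PA_4P7 and 140 in IVFP25. List counts and medians below are therefore descriptions of the members that passed. Among 23 genes of definitive endoderm and hypoblast, 19 were compared and 7 were in this class, against 1.37% of all genes compared, and none was lower in PAP25. The median difference from PA_4P7 was 0.70, and that of IVFP25 was -0.21. SOX17, an endoderm transcription factor, was at 26.1 FPKM in PAP25, 1.82 in PA_4P7 and 1.73 in IVFP25, which is 14.3 times as high in PAP25 as in PA_4P7. FOXA2, a pioneer factor of endoderm and node, was at 81.8, 15.5 and 13.2 FPKM. APOA1, the main HDL apolipoprotein, made by the yolk sac endoderm and liver, was at 350, 46.8 and 50.1 FPKM.

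GATA4 and GATA6, zinc finger factors of the hypoblast, were at lower levels. GATA4 was at 5.99 FPKM in PAP25, 0.252 in PA_4P7 and 0.234 in IVFP25, and GATA6 at 2.64, 0.264 and 0.301. FOXA1 was at 4.18, 0.281 and 0.628 FPKM, and HNF4A, a nuclear receptor of visceral endoderm, at 2.47, 0.403 and 0.190. In these 7 genes PAP25 alone was high, and GATA4, GATA6, FOXA1 and HNF4A reached 1 FPKM in no other library. The other 12 members compared were not in the class. Of the basement membrane genes on the list, LAMB1 was at 39.6, 42.6 and 39.3 FPKM and COL4A2 at 21.2, 21.8 and 13.1, while NID2 was at 1.85, 0.715 and 0.748 and reached 1 FPKM only in PAP25. The secreted endoderm products AFP and TTR were listed at 0 in all 3 libraries.

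Of the 23 primitive streak and mesoderm symbols, 10 were compared, 3 were higher in PAP25 alone, against 1.37% of all genes, and none was lower in PAP25. T (brachyury), the T-box factor of the primitive streak and notochord, was at 40.6 FPKM in PAP25, 3.09 in PA_4P7 and 4.41 in IVFP25. LHX1, a LIM homeobox factor of the anterior streak, was at 12.9, 0.790 and 0.586 FPKM, and APLNR, the apelin receptor of early mesoderm, at 3.13, 0.320 and 0.375. LHX1 and APLNR reached 1 FPKM only in PAP25, as did 4 of the 10 compared members in all. The 13 symbols not compared include TBXT, another symbol of T that has no values of its own. The median difference of the list was 0.89 and became 1.68 with a pseudocount of 0.1, since most of its members are low in PA_4P7. EOMES, a T-box factor of the streak, just missed the threshold with a difference of 0.97, at 10.9, 5.04 and 3.10 FPKM. GSC, a homeobox factor of the organizer, was at 4.90, 3.58 and 2.11 FPKM, MIXL1 was below 1 FPKM in all 3 libraries, and SNAI1, a repressor of E-cadherin, was at 5.24, 10.5 and 6.21.

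NOTO and SHH, both of the notochord, and HHEX and CYP26A1 were found in the same class when its members were read. They were chosen after their values were seen and from no fixed list, so no tally of such genes is given. NOTO, a notochord homeobox factor, was at 8.92 FPKM in PAP25, 1.16 in PA_4P7 and 1.47 in IVFP25. SHH, the hedgehog ligand of the notochord, was at 28.1, 5.18 and 5.70 FPKM, and HHEX, a homeobox factor of anterior endoderm, at 7.28, 0.929 and 1.66. CYP26A1, which breaks down retinoic acid, was at 99.3, 31.4 and 42.5 FPKM. All 4 were highest in PAP25 by over 2 times, with the other libraries close to each other.

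**Figure D4:**
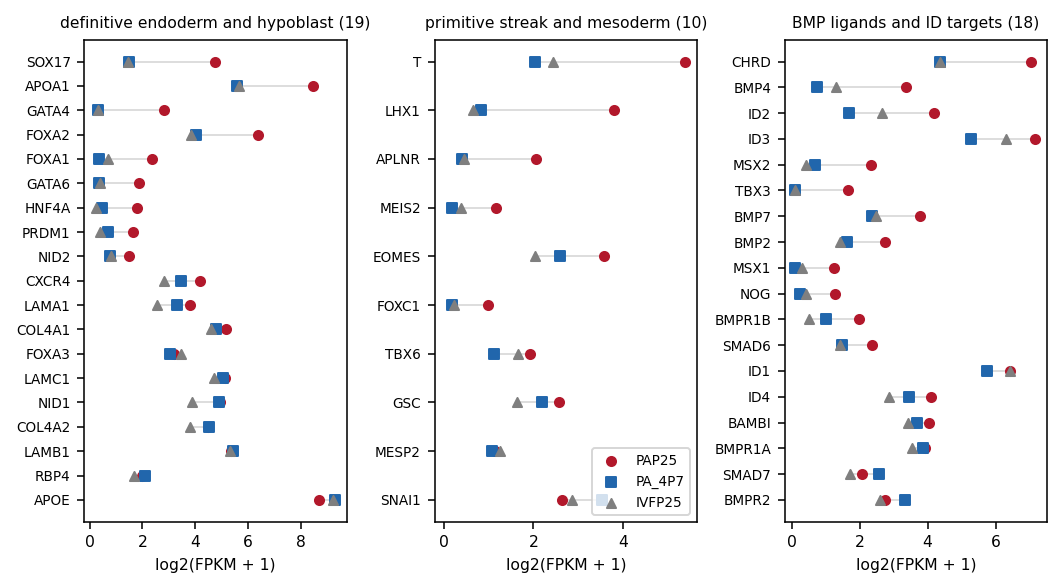
Level of every compared gene of the endoderm and hypoblast list (19 genes), the primitive streak and mesoderm list (10) and the BMP list (18) on the log2(FPKM + 1) scale (x axis), ordered by the difference of PAP25 from PA_4P7, with a circle for PAP25, a square for PA_4P7 and a triangle for IVFP25. At the top of each panel the circle stands alone to the right, as for SOX17, T and CHRD, and towards the bottom the marks lie together or PAP25 is lower, as for SNAI1.

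BMP signalling genes had a median difference of 1.08, against -0.04 for IVFP25, which was the largest of the gene lists for PAP25. With a pseudocount of 0.1 it was 1.52 and that of the primitive streak list was larger, at 1.68. BMPs are secreted ligands that act through SMADs to switch on the ID genes, and extracellular antagonists such as CHRD hold them in check. Of 21 genes, 18 were compared, 10 were higher in PAP25 than in PA_4P7 (2.36% over all genes) and none was lower, and 7 of the 10 were of PAP25 alone (1.37% over all genes). Of the 18, 4 (NOG, MSX1, MSX2 and TBX3) reached 1 FPKM only in PAP25, and 2 of the 7 were among them. Among the ligands, BMP4 was at 9.25 FPKM in PAP25, 0.688 in PA_4P7 and 1.45 in IVFP25, BMP7 at 12.7, 4.12 and 4.63, and BMP2 at 5.76, 2.08 and 1.66. The antagonist CHRD was at 130, 19.4 and 19.4 FPKM, and NOG, another antagonist, at 1.43, 0.194 and 0.335.

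Among the BMP targets, ID2, MSX2 and TBX3 were higher in PAP25 alone, while ID3 was shared by both P25 libraries. ID2 was at 17.3 FPKM in PAP25, 2.22 in PA_4P7 and 5.35 in IVFP25, MSX2, a homeobox factor, at 4.05, 0.610 and 0.343, and TBX3 at 2.17, 0.0827 and 0.0734. ID1 was at 84.7, 52.5 and 83.8 FPKM, so both P25 libraries were above PA_4P7 by less than the threshold. The receptors differed less. BMPR1A was at 14.2, 13.5 and 10.6 FPKM, and BMPR2 at 5.75, 9.06 and 5.00. BMPER, a secreted modulator of BMPs that was chosen after its values were seen, was at 3.04, 0.383 and 0.185 FPKM.

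WNT genes were split. Of 27 genes, 19 were compared, 4 were higher in PAP25 alone, against 1.37% of all genes, and none was lower. The median difference was 0.23. SP5, a WNT target factor, was at 12.4 FPKM in PAP25, 1.06 in PA_4P7 and 1.90 in IVFP25. LGR5, the R-spondin receptor, was at 1.82, 0.264 and 0.199 FPKM, DKK1, whose promoter is shown above, at 4.59, 1.51 and 1.32, and TCF7 at 7.79, 3.36 and 3.01. LGR5 reached 1 FPKM only in PAP25, and with the highest transcript of each gene alone the differences of LGR5 and TCF7 were 0.83 and 0.74, below the threshold, which left SP5 and DKK1 of the 4. AXIN2, the most widely used WNT target, was level at 3.79, 3.80 and 3.84 FPKM. Beyond this list, SMAD3, which carries the activin and NODAL signal, was at 9.07, 3.32 and 2.26 FPKM.

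Members of other lineage lists were also in this class, with unequal tallies of their lists. Over all genes, 2.36% were higher and 1.01% lower in PAP25 than in PA_4P7. The neural crest list had 9 genes compared, 4 higher in PAP25, none lower and a median of 0.69, and 4 of the 9 reached 1 FPKM only in PAP25. The neural ectoderm list had 8 genes compared, 2 higher in PAP25 and a median of 0.05. Its member SIX3 reached 1 FPKM only in PAP25, and 19 members were not compared. The trophectoderm and amnion list had 15, with 2 higher, 1 lower (GABRP) and a median of 0.42, against 0.23 for IVFP25. Its median difference of PAP25 from IVFP25 was -0.14. Of these 15, 3 reached 1 FPKM only in PAP25, GATA3 among them, and 11 members were not compared. The fibroblast and feeder list had 14, with 1 higher, 3 lower and a median of -0.21. SIX3, a forebrain homeobox factor, was at 8.14 FPKM in PAP25, 0.669 in PA_4P7 and 0.267 in IVFP25, and NCAM1, a cell adhesion gene, at 6.62, 2.80 and 2.20. GATA3, a trophectoderm and amnion factor, was at 3.97, 0.122 and 0.339 FPKM, while CDX2 was below 1 FPKM in all 3. FN1, a fibronectin gene that mesoderm, endoderm and fibroblasts express, was at 71.3, 14.4 and 11.5 FPKM. SPON1, which encodes an extracellular protein of the floor plate, was at 16.1, 0.889 and 0.937 FPKM. RPL22L1, a ribosomal protein paralogue, was at 340, 40.7 and 48.9 FPKM, and RPL22 at 352, 505 and 595.

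The marker lists of other cell types hold genes described above, so their sums repeat those genes and are no separate measure. The 4 hypoblast or endoderm markers are GATA4, GATA6, SOX17 and FOXA2, and they summed to 117 FPKM in PAP25, 17.8 in PA_4P7 and 15.4 in IVFP25. The 4 mesoderm markers summed to 41.7, 3.82 and 4.59 FPKM, nearly all of it T, with HAND1 listed at 0 in PA_4P7 and IVFP25. The 4 trophectoderm or amnion markers, mostly GATA3 in PAP25, summed to 5.21, 0.407 and 0.912 FPKM. The 4 neural markers, none of them named above, were highest in PA_4P7, at 4.94, 7.03 and 3.09 FPKM. In a bulk culture, more cells of a type and more RNA per cell cannot be told apart. None of 25 HOX genes in the table reached 1 FPKM in any library.

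The 39 genes lower in PAP25 alone included genes of pluripotent cells. ERAS, a constitutively active RAS of embryonic stem cells, was at 43.0 FPKM in PAP25, 127 in PA_4P7 and 112 in IVFP25. ZFP42, also known as REX1, was at 43.6, 91.2 and 89.5 FPKM with a difference of -1.05. It was below the threshold when the libraries were scaled to a common level or with its highest transcript alone. On the core pluripotency list, 16 of 19 genes were compared, 2 were higher in PAP25 than in PA_4P7 and 2 lower, against 2.36% and 1.01% of all genes, and the median difference was -0.24. SALL1, 1 of the 2 higher genes, was of PAP25 alone, above both other libraries by 1.28 or more. Of the 17 primed pluripotency genes compared, none was called, which is near the shares over all genes for a list of this size, and the median difference was -0.07.

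TYMS was at 96.3 FPKM in PAP25, 286 in PA_4P7 and 235 in IVFP25. GABRP, a GABA receptor subunit, was at 21.3, 51.9 and 48.2 FPKM. It was the 1 gene of the trophectoderm and amnion list that was lower in PAP25, opposite to GATA3. TAGLN and ACTA2, smooth muscle proteins that fibroblasts also make, were at 14.6, 40.2 and 52.7 FPKM and at 1.42, 5.69 and 10.6 FPKM. MEST, a paternally expressed imprinted gene, was at 0.692 FPKM in PAP25, 6.26 in PA_4P7 and 4.70 in IVFP25, and RDH13, a retinol dehydrogenase, at 1.84, 13.0 and 14.9. CXH4orf3 was at 6.00, 24.2 and 20.9 FPKM, SGPP2, a sphingosine phosphate phosphatase, at 2.25, 7.17 and 10.6, and SLC1A6, a glutamate transporter, was listed at 0 in PAP25 with 1.68 and 2.40 in the others. MIR6782 was at 26.8, 96.5 and 82.4 FPKM, a value of a short precursor of 75 bases in a bulk RNA-seq library.

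Lists tied to prolonged culture had medians near 0. With 2.36% of all genes higher in PAP25 than in PA_4P7 and 1.01% lower, lists of this size would hold few calls or none at the overall shares, so their counts are given as values alone. Of the 23 compared genes of survival and gain in culture, none was called, and the median difference was 0.05. None of the 16 compared genes of senescence and telomeres and none of the 23 of DNA methylation and chromatin was called, with medians of -0.03 and -0.10. GADD45A, a growth arrest gene, was higher in PAP25 alone at 6.33, 1.74 and 2.53 FPKM. The cytosolic ribosomal proteins (30 genes) had a median of -0.05, the mitochondrially encoded genes (13) one of 0.09 and the glycolysis and hypoxia genes (32) one of 0.03, with VEGFA higher in PAP25 alone at 9.11, 3.93 and 3.43 FPKM.

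**Figure D5:**
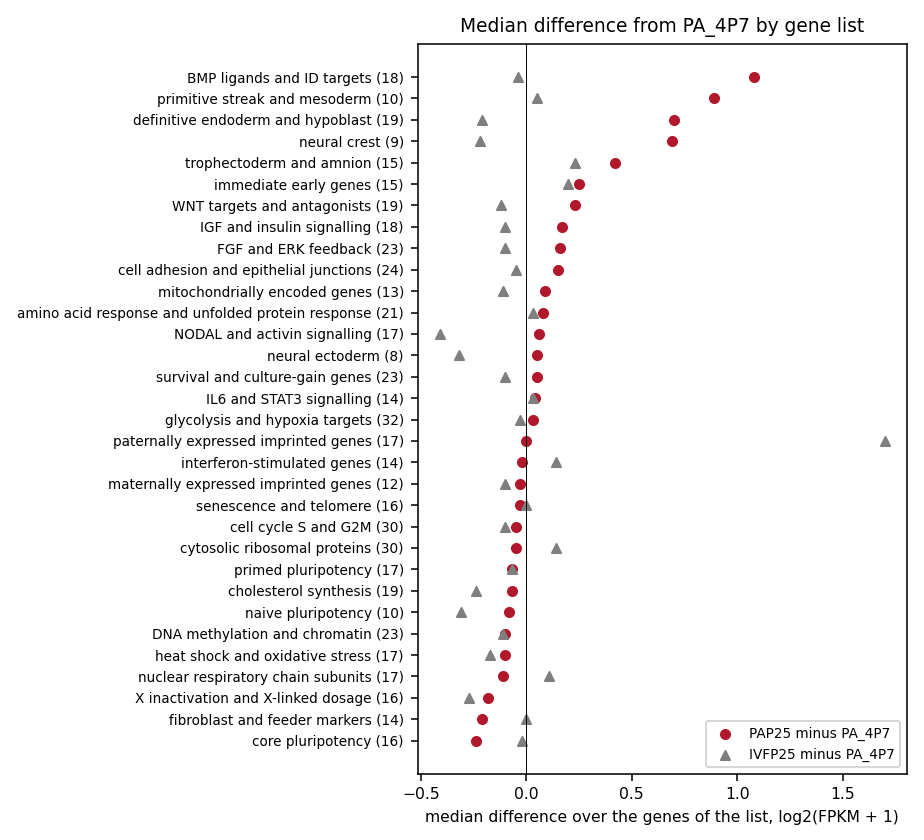
Median difference from PA_4P7 over the compared genes of each gene list (number in brackets) on the log2(FPKM + 1) scale (x axis), with circles for PAP25 and triangles for IVFP25. The 32 lists shown have at least 5 compared genes. BMP, primitive streak, endoderm and neural crest lists lie furthest to the right for PAP25, at 1.08, 0.89, 0.70 and 0.69, while their IVFP25 triangles lie between -0.22 and 0.05. Each of these lists holds members that reached 1 FPKM only in PAP25.

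Chromosome medians lay near 0. Over the 19 chromosomes, the median difference of PAP25 from PA_4P7 ranged from -0.074 on chromosome 15 to 0.039 on chromosome 4, with 221 to 1423 genes compared on each. The genes higher in PAP25 alone were spread over all chromosomes, from 0.548% of the genes compared on chromosome 12 to 2.65% on chromosome 16. Neighbours within 100 kb in the same class were few. LEFTY2 with LOC100524517 was one such pair, and BMI1, a Polycomb gene, with COMMD3, 1.24 kb away, was another. BMI1 was at 7.34, 2.17 and 2.70 FPKM and COMMD3 at 5.02, 1.13 and 1.35 in PAP25, PA_4P7 and IVFP25, and both were chosen after their values were seen.

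Some differences lay in overlapping genes on the same strand, where reads can be given to either. NCBP2, the small subunit of the cap-binding complex, was listed at 0 in PAP25 and was at 18.1 FPKM in PA_4P7 and 17.7 in IVFP25, while PIGZ, which overlaps it on the plus strand of chromosome 13, was at 10.1, 0.347 and 1.74. CCNL1, a cyclin of splicing, was at 17.9, 6.15 and 16.7 FPKM, and VEPH1, which overlaps it on the minus strand of chromosome 13, at 1.08, 7.37 and 1.09. In both pairs 1 gene was high where the other was low. INAFM1 was at 9.78 FPKM in PAP25 and listed at 0 in both others, and it overlaps the 3′ end of CCDC9 on the same strand of chromosome 6, which was at 11.1, 12.8 and 15.4. DNAJB13 and UCP2 overlap on opposite strands, and UCP2 was at 28.3, 92.2 and 59.6 FPKM. Whether the reads were divided differently between libraries was not tested.

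The level of the genes differed between classes. Adding 1 FPKM takes part in the calls and makes the differences of low genes smaller. What set the levels of the classes was not tested. The median of the mean FPKM over the 3 libraries was 2.29 for genes higher in PAP25 alone and 7.42 for those lower, 4.50 for genes higher in both P25 libraries and 3.18 for those lower in both, against 8.83 for all genes compared. A mean under 5 FPKM was found for 78.1%, 38.5%, 57.9% and 72.1% of these classes in the same order, against 35.0% of all. Unnamed LOC symbols made up 31.6% of the genes higher in both P25 libraries and 34.9% of those lower in both, 13.6% of those higher in PAP25 alone and 25.6% of those lower in PAP25 alone, against 7.35% of all. Of the 43 genes lower in both, 8 were listed at 0 in at least 1 library. In the same class LOC407246, annotated as a pseudogene and chosen after its values were seen, was at 4.08 FPKM in PAP25, 68.5 in PA_4P7 and 4.09 in IVFP25. It overlaps LDHB, which was at 737, 918 and 818 FPKM in the same order, and whether reads were shared between them was not tested.

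Promoter sequence was not used in the comparison. The window was placed by the annotated start of each gene, and where this is a coding start, the 300 bases may not hold the promoter. The promoters of all 4 classes had a lower CpG content than those of all genes compared. The median ratio of observed to expected CpG in the 300 bases was 0.611 for genes higher in both P25 libraries, 0.670 for those lower in both, and 0.592 and 0.588 for those higher and lower in PAP25 alone, against 0.777 over 12018 promoters. The TCF/LEF motif marked in the DKK1 promoter, CTTTGA on either strand, was in 31 of 164 promoters of genes higher in PAP25 alone (18.9%) and in 10.6% of all promoters. It was also in 7 of 35 promoters (20.0%) of genes lower in PAP25 alone and in 6 of 34 (17.6%) of genes higher in both, and in 5 of 40 (12.5%) of those lower in both. The GATA motif AGATAA was in 7.50% to 8.82% of the promoters of the 4 classes against 6.52% of all. The forkhead motif TGTTTAC was in 4.27% of those higher in PAP25 alone, 5.71% of those lower in PAP25 alone, 7.50% of those lower in both and none of those higher in both, against 2.32% of all, and the T-box motif GGTGTGA was in at most 3.05% of any class against 2.68%.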

How the data were processed

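Bulk RNA-seq of 3 pESC libraries was used. The authors trimmed reads with Trim Galore 0.6.4, mapped them to susScr11 with HISAT2 2.2.1 and deposited StringTie 2.2.1 FPKM values for 81391 RefSeq transcripts. The paper and the labels name different library kits and sequencers. FPKM were summed per gene symbol and written as log2(FPKM + 1). A gene was compared with at least 1 FPKM in 1 library and called at a difference of 1. FPKM are not counts and depth is unknown, so no count test was made, and with 1 library a side there was no test. The 3 columns name the group but not the sample. The step that sorts genes into classes was checked on input with known classes. Alternatives were another pseudocount, fold, floor, scaling, 1 transcript per gene and named symbols only. Of the compared genes 12270 (99.8%) were found in RefSeq's annotation of Sscrofa11.1. Named genes were the 10 of each class with the largest smaller defining difference, LOC symbols left out, and members of 36 gene lists in these classes or defining a list. Members, lists and rules were chosen with earlier results of these data known. Some items are not reported here. Python 3.11.15, pandas 2.3.3 and numpy 2.4.6 were used.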

Additional observations from a re-analysis of the deposited data

How the results depend on the processing

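The counts of called genes depended on the pseudocount, the fold, the scaling to an equal sum, a floor on the mean and the use of 1 transcript a gene. The direction in which PAP25 differed, more genes higher than lower, held under all 8 alternatives run. Leaving out the floor of 1 FPKM was among them and could not have changed it. The order of the values below is higher and lower in PAP25 than PA_4P7, higher and lower in both P25 libraries, higher and lower in PAP25 alone, and differing between IVFP25 and PA_4P7 and between PAP25 and IVFP25. They were 564, 281, 132, 100, 290, 90, 620 and 891 with a pseudocount of 0.1. At a 4-fold difference they were 44, 19, 1, 11, 29, 4, 49 and 63. The 1 gene was LOC100739791, and the 4 were NCBP2, RDH13, LOC100519166 and LOC110257943. With a mean of at least 5 FPKM, which left 7986 genes, they were 79, 60, 16, 12, 37, 24, 116 and 156. Scaling each library to an equal sum, as in TPM, which multiplies values by 2.358 to 2.488 and so makes the pseudocount and the floor smaller, gave 568, 232, 87, 89, 320, 63, 513 and 858. The highest transcript of each gene alone gave 671, 471, 241, 119, 242, 235, 995 and 1170. Without LOC symbols, 28 genes were lower in both P25 libraries, and the other counts stayed within 1.5 times. Leaving out the floor of 1 FPKM could change no count, because a difference of 1 needs at least 1 FPKM in the higher library. Scaling by the median log2 ratio kept every count within 1.5 times, and requiring the P25 libraries to be within 2-fold of each other left 33 and 37 shared genes. The share of calls that were higher in PAP25 was 70.0%, 56.8% with a mean of at least 5 FPKM and 58.8% with the highest transcript. Of 87 named genes, 59 were below the threshold at a 4-fold difference, and 46 had a mean under 5 FPKM and were not compared with that floor, among them GATA4, GATA6, LHX1 and BMP4. None fell below the threshold with a pseudocount of 0.1. A smaller pseudocount can only widen a difference, so this was fixed in advance and is no check. With the other alternatives 1 reversed: PIGZ, whose smaller difference was -0.03 with its highest transcript alone. With that setting 12 others fell below the threshold, namely CCNL1, TP73, SPRED3, MEST, TCF7, LGR5, ARHGAP29, BMI1, BMPER, LRRN2, TAGLN and ZFP42. ZFP42 was also below it with either scaling, and ID3 and UCP2 with the scaling to an equal sum. No paired analysis was possible because no test was made and the columns carry no replicate numbers. With 1 library a side, no library could be left out. Of 34 list medians, that of primitive streak and mesoderm went from 0.891 to 1.682 with a pseudocount of 0.1, beyond 1 SD of the libraries' median levels. With scaling by the median log2 ratio, 5 list medians changed sign, with shifts of at most 0.06. Chromosome medians also moved by at most 0.06, beside a range of -0.074 to 0.039, and 13 of 19 moved beyond 1 SD of the libraries' medians and 11 changed sign with that scaling, and 6 and 3 with a mean of at least 5 FPKM, so no order of chromosomes is read from them.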

Other observations

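Many paternally expressed imprinted genes were high in IVFP25. Of 17 compared, 10 were higher in IVFP25 alone, against 0.391% of all genes, but 10 of the 17 reached 1 FPKM only in IVFP25 and so were compared through the library in which they were high, and the count is a description. The 10 higher genes included NNAT at 237 FPKM in IVFP25 against 1.99 in PAP25 and 2.04 in PA_4P7, and SNRPN at 100 FPKM against 0.00688 and a value listed at 0. PEG3 and NDN were listed at 0 in both PAP25 and PA_4P7, with 5.60 and 47.7 FPKM in IVFP25. Other members differed from these: PA_4P7 had the highest level of MEST, 6.26 FPKM, and DIRAS3 was at 1.57 FPKM in PAP25, 0.0397 in PA_4P7 and 4.12 in IVFP25, above PA_4P7 in both P25 libraries.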
